A study of Mus musculus with 4 samples.

Results

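Matrix metalloproteinases (Mmp genes), the Adamts proteases with their Adamts-like relatives, and the Timp inhibitors were followed across 4 mouse cell populations. The members were all genes on the array whose name in the files begins with Mmp or Timp and a number, or with Adamts. This gave 51 of 35527 gene names, with 23 Mmp, 19 Adamts, 5 Adamtsl and 4 Timp genes, measured by 71 probes. By their brightest probe, 34 of these 51 genes were well above background on all 4 arrays, 12 on some of them, and 5 (Adamts3, Mmp8, Mmp16, Mmp20 and Mmp21) on none. A dimmer probe of Mmp21 was well above background in MEF only, at 0.035 times the array's 75th percentile.

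The cells came from iPS-OSH and iPS-J, induced pluripotent stem (iPS) cell lines of C57BL/6 background, embryonic stem cells (ESC) of 129SV background, and mouse embryonic fibroblasts (MEF) of C57BL/6 background. All were grown in DMEM with heat-inactivated serum, at 15% for the pluripotent lines and 10% for MEF, and only the pluripotent lines received 2-mercaptoethanol and the cytokine LIF. How the iPS lines were made, what OSH and J stand for, whether a line is 1 clone, its passage and any feeder cells are not given in the sources used here. Each population was measured on 1 one-colour Agilent array, so the differences have no replicates behind them and no test is possible. Strain differs between ESC and the rest, and scan session differs between MEF, the iPS lines and ESC. Serum, 2-mercaptoethanol and LIF differ between MEF and the pluripotent lines. None of these can be told apart from cell type in the comparisons where they differ.

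Mmp enzymes are zinc endopeptidases that cut collagens and other matrix proteins, and most are made as inactive precursors. Adamts enzymes add thrombospondin repeats and cut proteoglycans such as versican or trim procollagens, while Adamtsl proteins share their ancillary domains and lack the protease. Timps bind and block the active enzymes. Fibroblasts are a main source of matrix and of many of these genes in connective tissue, and several Mmp promoters respond to growth factors and cytokines through AP-1 sites.

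In brief, 25 of 46 members detected on at least 1 array were highest in MEF (54.3%, against 35.1% of all genes). iPS-OSH had Timp1, Timp2 and Timp3 within 2-fold of MEF, and stood above the other 3 arrays for Mmp3, Mmp10 and Mmp13. Levels are given as normalized signal, the processed signal of a probe as a multiple of the 75th percentile of its array. Signals of different probes are not comparable, so each gene is read across populations only. Differences are on the log2 scale, and genes are called higher or lower at 2-fold. The words "at least" mark a nominal lower bound, used where a gene was well above background on only 1 of the 2 arrays compared. Such a bound is not strict, because it rests on the lowest well-above signal of the array or the dim signal itself. In iPS-J that lowest signal was 0.0134, yet Adamts13 at 0.034 was not well above background, so bounds can overstate a difference.

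The promoters of the chromosome 9 Mmp genes are shown first, because among the members the largest differences of iPS-OSH from all other arrays lay in these genes. In the array annotation (mm9), the probes of 10 Mmp genes lie on chromosome 9 between positions 7282762 and 7697700, in the order Mmp13, Mmp12, Mmp1b, Mmp3, Mmp1a, Mmp10, Mmp8, Mmp27, Mmp20 and Mmp7. The other 13 Mmp genes lie elsewhere. RefSeq promoters (GRCm38.p6, 250 bases before to 50 after the annotated start) were found for 36 of the 51 members. The AP-1 letters TGANTCA, which are their own reverse complement, were in 8 of 12 promoters of the cluster (66.7%), in 0 of 27 promoters of other members and in 7.81% of all 32851 promoters. The TATA box letters TATAAA, searched on both strands, were in 9 of 12, in 3 of 27 and in 13.6% of all promoters. The median number of CpG dinucleotides was 1 in the cluster promoters, 22 in those of other members and 7 over all. The 110 bases before the annotated start follow, 5′ to 3′ on the gene's strand, with TGANTCA and TATAAA matches in capitals.
Mmp3: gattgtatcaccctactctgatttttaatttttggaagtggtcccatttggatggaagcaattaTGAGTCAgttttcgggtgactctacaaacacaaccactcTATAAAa
Mmp10: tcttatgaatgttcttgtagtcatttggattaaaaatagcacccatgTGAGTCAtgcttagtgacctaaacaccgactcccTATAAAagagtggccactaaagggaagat
Mmp13: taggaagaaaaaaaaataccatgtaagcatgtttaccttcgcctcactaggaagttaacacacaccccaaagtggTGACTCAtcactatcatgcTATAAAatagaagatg
Mmp1a: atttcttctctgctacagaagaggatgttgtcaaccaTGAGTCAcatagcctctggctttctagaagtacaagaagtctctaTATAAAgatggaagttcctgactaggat
Mmp1b: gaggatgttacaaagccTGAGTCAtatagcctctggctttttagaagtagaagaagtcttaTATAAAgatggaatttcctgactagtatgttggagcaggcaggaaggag
Mmp8: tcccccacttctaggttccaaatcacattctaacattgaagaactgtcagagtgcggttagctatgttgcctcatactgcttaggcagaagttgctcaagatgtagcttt
They are on GRCm38.p6 chromosome 9, at 9:7445712-7445821 for Mmp3, 9:7502232-7502341 for Mmp10, 9:7272404-7272513 for Mmp13, 9:7464031-7464140 for Mmp1a, 9:7388027-7388136 for Mmp1b and 9:7558319-7558428 for Mmp8, on the plus strand except Mmp1b on the minus strand. Mmp8 is shown as a cluster gene without either match in this stretch, and it was not detected on any array. The AP-1 letters began 46 bases before the start in Mmp3, 63 in Mmp10, 35 in Mmp13, 73 in Mmp1a and 93 in Mmp1b. Such a match is a description of the letters, not a site in use: Mmp20 also holds TGANTCA and was not detected on any array.

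Stromelysins cut proteoglycans and activate other Mmp precursors, and collagenases cut fibrillar collagens. Mmp3, stromelysin 1, had 2.73 in iPS-OSH, 0.279 in iPS-J, 0.216 in ESC and 0.189 in MEF. It stood high on the iPS-OSH array alone, 14.4-fold above MEF, 12.6-fold above ESC and 9.78-fold above iPS-J, while iPS-J and ESC lay within 2-fold of MEF. Mmp10, stromelysin 2, a close relative in the same cluster, had 2.05 in iPS-OSH, 0.216 in iPS-J, 0.162 in ESC and 0.473 in MEF. It was 4.34-fold above MEF in iPS-OSH, and 2.19-fold below MEF in iPS-J and 2.91-fold below MEF in ESC. Normexp background correction took the difference of iPS-J from MEF to -0.87 log2, under 2-fold. iPS-OSH was the high array for both genes, and the lowest array was MEF for Mmp3 and ESC for Mmp10. Mmp11, stromelysin 3, which lies elsewhere in the genome and is known as a stromal gene, had 3.63 in iPS-OSH, 5.46 in iPS-J, 4.11 in ESC and 7.05 in MEF, all within 2-fold of each other.

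Mmp13, the main interstitial collagenase of rodents, had 0.491 in iPS-OSH and 0.0948 in MEF, a 5.18-fold higher signal in iPS-OSH, and was not well above background in iPS-J (0.0153) or ESC (0.0341). Its signal in iPS-OSH was at least 32.0-fold higher than in iPS-J, and 4 of the 29292 genes compared differed by more in that direction. Against ESC it was at least 14.4-fold higher in iPS-OSH. Mmp1a, a rodent counterpart of human collagenase 1, had another pattern, with 0.18 in iPS-J and 0.0297 in MEF, and no signal well above background in iPS-OSH (0.0178) or ESC (0.0252). Its signal in iPS-J was 6.08-fold that of MEF, and it was at least 10.1-fold lower in iPS-OSH than in iPS-J. The closely related Mmp1b had 0.0832 in iPS-OSH and 0.0503 in iPS-J against 0.0242 in MEF, and was not well above background in ESC (0.00826). The pair Mmp1a and Mmp1b are near copies, and whether their probes take up each other's RNA was not tested. Signals of this size are close to the array's floor: against the 95th percentile of ERCC control probes, a stricter limit, Mmp13 was detected in iPS-OSH only and Mmp1a in iPS-J only. With that limit, chosen after seeing the data, the bounds became 2.65 log2 for Mmp13 (iPS-OSH over iPS-J) and 0.63 log2 for Mmp1a (iPS-J over MEF), the last no longer 2-fold.

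Matrilysin and macrophage elastase also lie in the cluster. Mmp7, matrilysin, a small epithelial protease, had 0.0561 in iPS-OSH, 0.0556 in iPS-J, 0.357 in ESC and 0.264 in MEF, low in both iPS lines and high in both ESC and MEF. Mmp7 was 6.37-fold lower in iPS-OSH than in ESC and 6.42-fold lower in iPS-J than in ESC. Mmp12, macrophage elastase, had 0.0819, 0.0578, 0.0918 and 0.075 in iPS-OSH, iPS-J, ESC and MEF, and no pair of arrays was 2-fold apart. Mmp27 was well above background in MEF only, at 0.102, and was at least 4.62-fold lower in iPS-OSH, 7.48-fold lower in iPS-J and 3.74-fold lower in ESC. With normexp correction these differences were -1.02, -0.78 and -0.81 log2, under 2-fold in iPS-J and ESC, and Mmp27 was not detected on any array with the ERCC limit. Of 8 cluster genes compared between iPS-OSH and MEF, 4 were higher in iPS-OSH (background 13.7% of all genes) and 2 lower (24.9%), and of 6 compared between iPS-OSH and ESC, 4 were higher (9.13%) and 1 lower (27.0%). Of 8 compared between ESC and MEF, 0 were higher in ESC (22.3%) and 3 lower (17.0%). Among 11 Mmp genes elsewhere, 3 were higher and 4 lower in iPS-OSH against MEF, and 3 higher and 3 lower in iPS-OSH against ESC. The cluster genes thus did not move as a block: neighbours such as Mmp3 and Mmp1a were high in different lines.

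**Figure D1:**
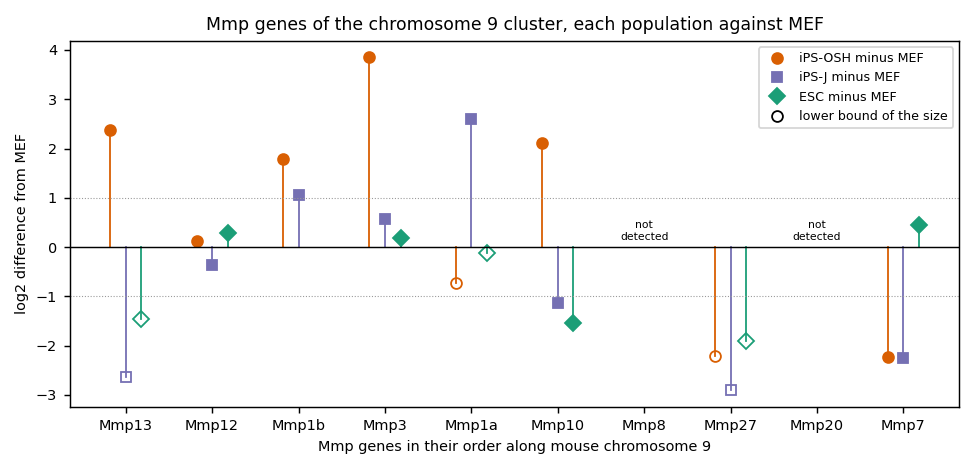
Log2 difference from MEF (vertical axis) of the 10 Mmp genes of the chromosome 9 cluster, in their order along the chromosome, for iPS-OSH, iPS-J and ESC, 1 array each, with open symbols for lower bounds. Mmp3, Mmp10 and Mmp13 stand at 3.85, 2.12 and 2.37 in iPS-OSH, Mmp1a at 2.60 in iPS-J, and Mmp7 at -2.23 in iPS-OSH and -2.25 in iPS-J.

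The gelatinases cut denatured collagen and basement membrane collagen. Mmp2 had 2.83 in iPS-OSH, 1.13 in iPS-J, 1.62 in ESC and 7.43 in MEF. MEF was the high array, and Mmp2 was lower by 2.62-fold in iPS-OSH, by 6.56-fold in iPS-J and by 4.57-fold in ESC. Mmp9, measured by a probe printed 10 times, had 0.211 in iPS-OSH, 0.111 in iPS-J, 0.0811 in ESC and 0.0924 in MEF. iPS-OSH was high for Mmp9, 2.29-fold above MEF and 2.6-fold above ESC, and the other 3 arrays lay close together. Both Mmp9 differences were under 2-fold with normexp correction (0.91 and 0.82 log2) and with the ERCC limit (0.86 and 0.24).

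The membrane-type enzymes are anchored at the cell surface. Mmp14, the membrane-type enzyme that activates pro-Mmp2 together with Timp2, had 2.39 in iPS-OSH, 0.442 in iPS-J, 0.289 in ESC and 5.88 in MEF. It was 2.46-fold lower than MEF in iPS-OSH, 13.3-fold lower in iPS-J and 20.3-fold lower in ESC, so that iPS-OSH stood 8.26-fold above ESC. Other genes of this group ran the other way. Mmp15 had 0.145 in iPS-OSH, 0.133 in iPS-J, then 0.205 in ESC, while the MEF signal of 0.0229 was not well above background. Mmp15 was thus at least 6.36-fold higher in iPS-OSH, at least 5.83-fold in iPS-J and at least 8.98-fold in ESC, but with the ERCC limit the bounds were under 2-fold. Mmp17 and the brighter probe of Mmp24 were highest in ESC. Mmp17 had 1.01 in iPS-OSH, 1.76 in iPS-J, 2.98 in ESC and 1.45 in MEF, and Mmp24 had 0.0782, 0.0824, 0.262 and 0.0861 in the same order. The dimmer probe of Mmp24 went another way, highest in MEF (0.0446) and not well above background in ESC (0.0219) or iPS-J (0.00892). Mmp25, a membrane-type enzyme known from leukocytes, was dim at 0.0738, 0.0473 and 0.0638 in iPS-OSH, iPS-J and ESC, with MEF under the detection call.

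Of the remaining Mmp genes, Mmp23, a membrane-bound enzyme with an unusual domain make-up, had 1.54 in iPS-OSH, 0.582 in iPS-J, 0.372 in ESC and 7.92 in MEF. It was lower than in MEF by 5.13-fold in iPS-OSH, by 13.6-fold in iPS-J and by 21.3-fold in ESC, the order seen for Mmp14. Mmp19 had 0.246 in iPS-OSH, 0.0641 in iPS-J, 0.154 in ESC and 0.413 in MEF, low in iPS-J. Mmp28, epilysin, had 0.0501 in iPS-OSH, 0.0722 in iPS-J, 0.173 in ESC and 0.117 in MEF, highest in ESC. Its dimmer probe was well above background in MEF only (0.0693), so the probes of Mmp28 did not give the same order.

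Adamts genes were mostly highest in MEF. Adamts1, a protease that cuts aggrecan and versican, had 1.2 in iPS-OSH, 0.259 in iPS-J, 0.344 in ESC and 9.71 in MEF. It was lower than in MEF by 8.09-fold in iPS-OSH, by 37.4-fold in iPS-J and by 28.2-fold in ESC, and 90 of 30717 genes lay further below MEF in iPS-J. Adamts5, the major cartilage aggrecanase of mice, had 0.149 in iPS-OSH, 0.0666 in iPS-J, 0.0971 in ESC and 1.14 in MEF. A second probe of Adamts5 was well above background in MEF only and bounded the differences from MEF at -5.18 log2 for iPS-OSH, -5.56 for iPS-J and -4.54 for ESC or lower. Adamts4, another aggrecanase, had 0.624 in iPS-OSH, 0.392 in iPS-J, 0.314 in ESC and 1.94 in MEF. For all 3 of these genes iPS-OSH was nearest to MEF, and MEF was clearly the high array.

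By their brightest probes, Adamts9, which is needed for versican turnover, and Adamts15 separated the iPS lines. Adamts9 had 0.458 in iPS-OSH, 1.32 in iPS-J, 0.335 in ESC and 1.65 in MEF, so that iPS-J lay near MEF and iPS-OSH near ESC. Adamts15 had 0.0562 in iPS-OSH, 0.313 in iPS-J, 0.15 in ESC and 0.0798 in MEF, 5.56-fold lower in iPS-OSH than in iPS-J. Both genes were therefore lower in iPS-OSH than in iPS-J, against the direction of Adamts1 and Adamts5. Adamts8 gave no clear answer, because its brighter probe was 1.19 log2 lower in iPS-OSH than in MEF while the other was at least 2.52 log2 higher. Adamts20 was well above background in MEF only.

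The procollagen N-proteinases remove the amino propeptide of fibrillar procollagens. Adamts2 had 1.42 in iPS-OSH, 0.336 in iPS-J, 0.486 in ESC and 10.7 in MEF. It was 7.51-fold lower in iPS-OSH, 31.8-fold lower in iPS-J and 21.9-fold lower in ESC, each against MEF. A dimmer second probe of Adamts2 gave -1.26 log2 for iPS-OSH, a bound of -3.04 for iPS-J and -0.24 for ESC, so that it was not 2-fold lower in ESC. For iPS-OSH against ESC the 2 probes went in opposite directions, at 1.55 log2 for the brighter and -1.01 for the dimmer. Adamts14 varied less, with 4.36 in iPS-OSH, 3.33 in iPS-J, 2.91 in ESC and 7.31 in MEF.

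Among the other Adamts genes, 1 was higher and 4 lower of 8 compared between iPS-OSH and MEF (all genes 13.7% and 24.9%), with a median of -0.94 log2. For iPS-J against MEF 1 was higher and 5 lower of 8 (16.6% and 30.3%), with a median of -1.28, and for ESC against MEF 2 were higher and 4 lower of 9 (22.3% and 17.0%), with a median of 0.33. Adamts7, which cuts cartilage oligomeric matrix protein, had 0.192 in iPS-OSH, 0.123 in iPS-J, 0.0697 in ESC and 0.483 in MEF. Adamts12, its close relative, had 0.0359 in iPS-OSH, 0.0817 in ESC and 0.171 in MEF, and was not well above background in iPS-J (0.0135). Adamts6 had 0.0696 in iPS-OSH and 0.146 in MEF and was not well above background in iPS-J or ESC. MEF was the high array for each of these, with iPS-OSH next for Adamts6 and Adamts7 and ESC next for Adamts12. Adamts19 was well above background in ESC only, at 0.0492, and Adamts18 went in opposite directions on its probes.

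The Adamtsl genes encode secreted matrix proteins, several of which bind fibrillin microfibrils. Adamtsl1 had 0.103 in iPS-OSH, 0.0908 in iPS-J, 0.0923 in ESC and 0.52 in MEF, so the pluripotent lines were alike and MEF was high. Adamtsl2 had 0.0317 in iPS-OSH, 0.047 in iPS-J, 0.0494 in ESC and 0.182 in MEF, the same arrangement. Adamtsl5 had 0.982 in iPS-OSH, 0.401 in iPS-J, 0.472 in ESC and 1.74 in MEF. Here iPS-OSH lay between MEF and the other lines, within 2-fold of MEF. Adamtsl3 was lowest in iPS-OSH (0.0295), and Adamtsl4 stayed between 0.464 and 0.961.

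No Timp gene was 2-fold apart between iPS-OSH and MEF. Timp1, a secreted inhibitor that also acts as a growth factor, had 55.7 in iPS-OSH, 19.2 in iPS-J, 7.05 in ESC and 106 in MEF. Timp2, which also takes part in the activation of pro-Mmp2, had 110 in iPS-OSH, 23.4 in iPS-J, 10.8 in ESC and 117 in MEF. Timp3, the inhibitor that stays bound to the matrix and blocks several Adamts enzymes, had 31.9 in iPS-OSH, 5.91 in iPS-J, 1.7 in ESC and 50.9 in MEF. The order of the arrays was the same for these 3 genes, MEF above iPS-OSH above iPS-J above ESC. Timp2 in iPS-OSH and MEF did not differ beyond the scaling, at -0.10 log2 here and 0.11 log2 under quantile normalization.

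Against MEF, Timp1, Timp2 and Timp3 were 5.51-, 5.0- and 8.62-fold lower in iPS-J and 15.0-, 10.9- and 29.9-fold lower in ESC. In iPS-OSH their differences from MEF were -0.93, -0.10 and -0.67 log2, none of them 2-fold, although Timp1 passed 2-fold under spike-in scaling (-1.06) and in the unscaled deposited table (-1.11). Against ESC, Timp3 was 18.8-fold higher in iPS-OSH, and 28 of the 30629 genes compared were further above ESC. Timp1 was 7.9-fold and Timp2 10.2-fold higher in iPS-OSH than in ESC. The smaller excess of iPS-J over ESC was 2.73-fold for Timp1, 2.17-fold for Timp2 and 3.47-fold for Timp3, and that of Timp2 was under 2-fold in 2 of 5 scalings (lowest 0.79 log2). A second probe of Timp2 gave -0.64, -3.39 and -4.03 log2 for iPS-OSH, iPS-J and ESC against MEF. Timp4, an inhibitor best known from heart, did not follow the others, with 0.177 in iPS-OSH, 0.0858 in iPS-J, 0.23 in ESC and 0.156 in MEF.

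**Figure D2:**
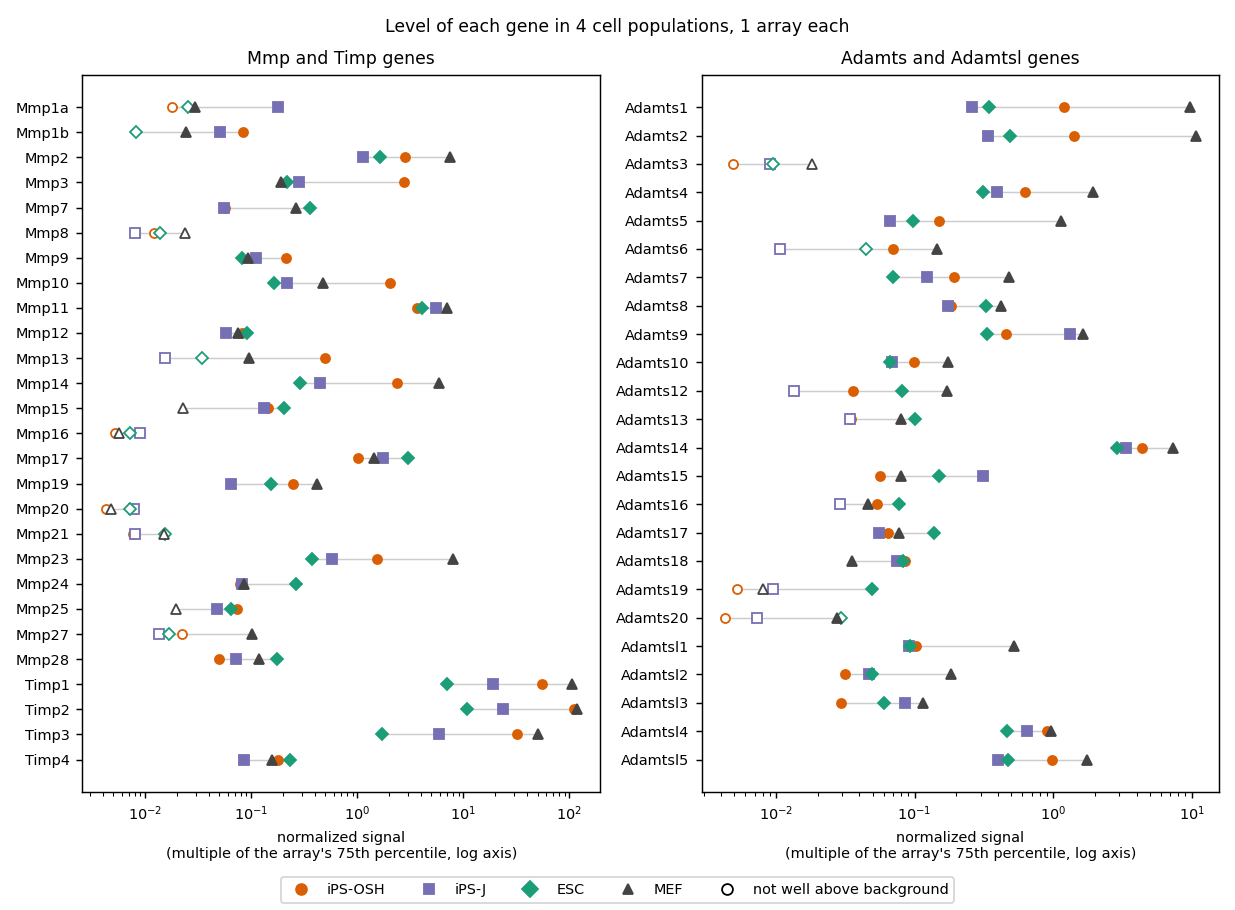
Normalized signal (multiple of the array's 75th percentile, log axis) of each of the 51 genes in iPS-OSH, iPS-J, ESC and MEF, 1 array each, with open symbols where the probe was not well above background. Read along each row only: MEF lies far right for Adamts1, Adamts2, Mmp23 and Mmp14, iPS-OSH lies alone on the right for Mmp3 and Mmp10, and iPS-OSH lies beside MEF for Timp2.

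Against MEF, the family as a whole was lower in each pluripotent population, with all 3 comparisons made against the same MEF array. Of 45 members compared in iPS-OSH, 8 were higher (17.8%, against 13.7% of all genes compared) and 19 lower (42.2%, against 24.9%), where 38.6% of all genes passed in either direction, with a median of -0.81 log2 where all genes had -0.33. Of 45 compared in iPS-J, 6 were higher (13.3%, against 16.6%) and 26 lower (57.8%, against 30.3%), together 71.1% against 46.9%, with a median of -1.23 where all genes had -0.35. Of 46 compared in ESC, 6 were higher (13.0%, against 22.3%) and 24 lower (52.2%, against 17.0%), together 65.2% against 39.3%, with a median of -1.06 where all genes had 0.10. The shares lower thus exceeded those of all genes in each case, and the shares higher lay near or under them.

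Of the Adamts genes compared with MEF, 10 of 17 were lower in iPS-OSH, 12 of 17 in iPS-J and 10 of 18 in ESC. Of all genes compared, 24.9%, 30.3% and 17.0% were lower in the same order. Adamtsl genes were lower in 3 of 5, 3 of 5 and 4 of 5, and Timps in 0 of 4, 3 of 4 and 3 of 4. Mmp genes were mixed, with 7 higher and 6 lower of 19 in iPS-OSH, 4 and 8 in iPS-J, and 4 and 7 in ESC. The shares of Mmp genes higher were 36.8%, 21.1% and 21.1%, where all genes had 13.7%, 16.6% and 22.3%. Their shares lower were 31.6%, 42.1% and 36.8%. Of the 46 members well above background on at least 1 array, 25 had their highest signal in MEF (54.3%, against 35.1% of all genes), 12 in ESC (26.1%, against 34.7%, and counting Adamts20, whose ESC signal was not well above background), 7 in iPS-OSH (15.2%, against 10.8%) and 2 in iPS-J (4.35%, against 19.5%). A total of 26 members were at least 4-fold different between some pair of populations, and 19 of these were highest in MEF. The matching shares over all genes were not computed, so these counts are a description only.

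**Figure D3:**
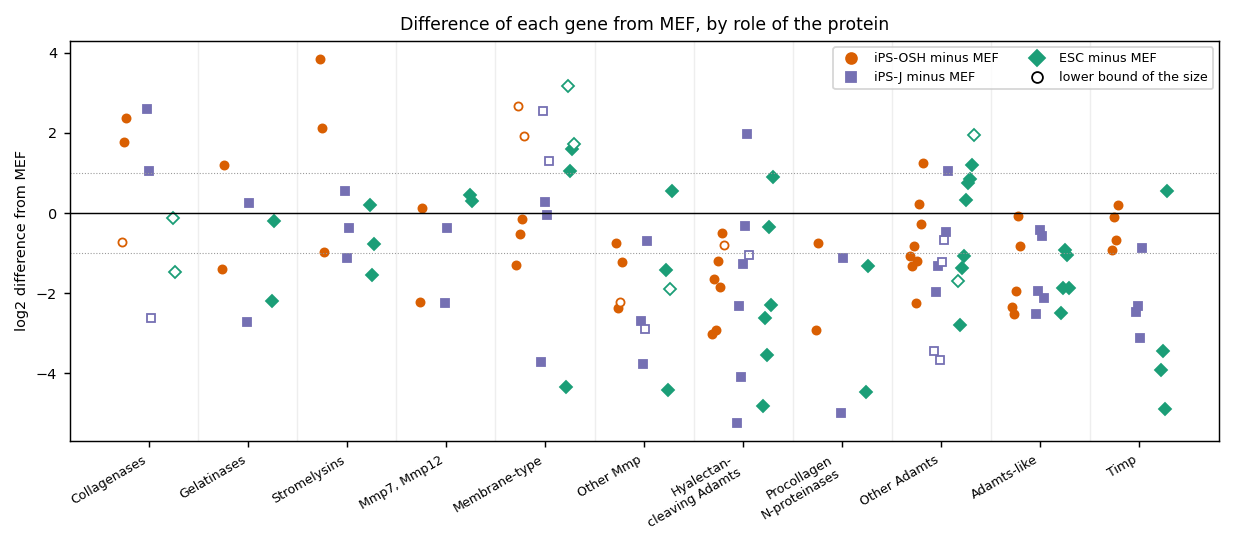
Log2 difference from MEF of each member, grouped by role, for iPS-OSH, iPS-J and ESC, 1 array each. Procollagen N-proteinases and Adamts-like genes lie below 0, Timps lie near 0 in iPS-OSH (-0.93 to 0.19) and mostly far below in ESC, and collagenases and stromelysins spread to both sides.

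Between the pluripotent lines, more members were higher than lower in iPS-OSH. Against ESC, 14 of 43 members were higher in iPS-OSH (32.6%, against 9.13% of all genes) and 10 lower (23.3%, against 27.0%), together 55.8% against 36.1%, with a median of 0.56 log2 where all genes had -0.26. This split moved with the processing, and so did that of all genes, at 2797 higher and 8267 lower here. Quantile normalization gave members 20 higher and 5 lower (all genes 4117 and 4974), and spike-in scaling 19 and 7 (4998 and 5059). The unscaled deposited table gave 17 and 7 (4015 and 6176). The percentile over probes detected on all arrays gave 13 and 11 (2078 and 10058), and no filter on dim probes 14 and 12 (3391 and 9580). In these settings the members' median lay 0.52 to 0.93 log2 above that of all genes. Against iPS-J, scanned in the same session, 17 of 43 were higher in iPS-OSH (39.5%, against 11.6%) and 4 lower (9.3%, against 7.61%), together 48.8% against 19.3%, with a median of 0.65 where all genes had 0.00. The 4 lower were Adamts9, Adamts15, Adamtsl3 and Mmp1a, and all 4 Timps were among the 17.

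Fewer members separated iPS-J from ESC. Of 42 members compared, 6 were higher in iPS-J (14.3%, against 6.0% of all genes) and 10 lower (23.8%, against 27.6%), together 38.1% against 33.6%, with a median of -0.11 where all genes had -0.18. Timp1, Timp2, Timp3, Adamts9, Adamts15 and Mmp1a were the 6 higher. The direction of this split was not settled by the data. Quantile normalization gave 10 higher and 3 lower (all genes 2807 and 3876), and normexp correction 5 and 2 (1276 and 3074). The percentile over probes detected on all arrays gave 4 and 12 (1063 and 9942). The median of the members lay 0.07 to 0.36 log2 above that of all genes over these scalings.

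**Figure D4:**
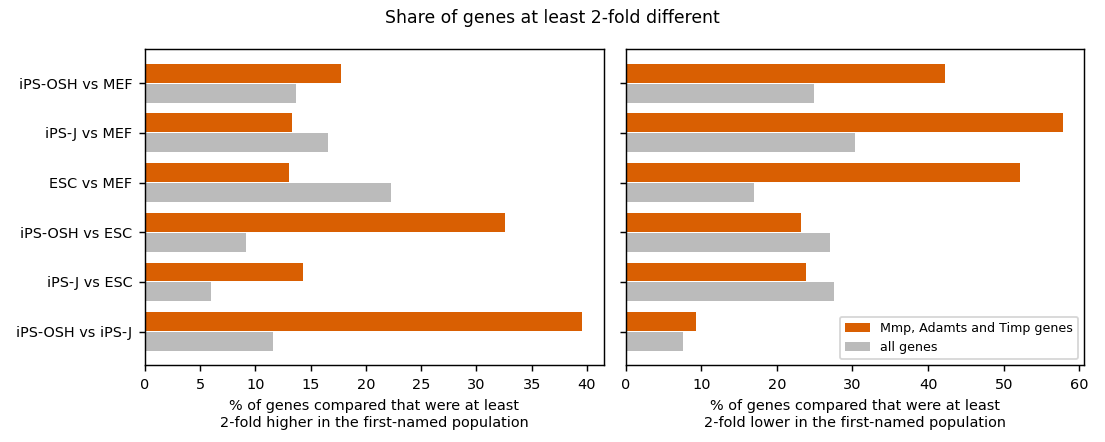
Percent of compared genes at least 2-fold higher (left) and lower (right) in the first-named population of each of the 6 comparisons, for the Mmp, Adamts and Timp genes and for all genes. The member bars reach 57.8% lower in iPS-J against MEF and 39.5% higher in iPS-OSH against iPS-J, where all genes have 30.3% and 11.6%.

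Genes that act with these proteases differed in the same comparisons. In a list of 53 genes of extracellular proteolysis outside the family (plasminogen system, other inhibitors, activators, cathepsins, tolloids, Adam proteases, substrates, AP-1 and Ets factors), 4 were higher and 22 lower in iPS-OSH than in MEF (all genes 13.7% and 24.9%). The counts were 7 higher and 30 lower in iPS-J against MEF (16.6% and 30.3%), and 6 and 33 in ESC against MEF (22.3% and 17.0%). Between pluripotent lines they were 24 and 6 in iPS-OSH against ESC (9.13% and 27.0%), 10 and 4 in iPS-J against ESC (6.0% and 27.6%), and 20 and 2 in iPS-OSH against iPS-J (11.6% and 7.61%). Against MEF, its median was -0.76 log2 in iPS-OSH where all genes had -0.33, -1.38 in iPS-J where all genes had -0.35, and -1.56 in ESC where all genes had 0.10. Plau, urokinase, which makes the plasmin that activates several Mmp precursors, had 0.313 in iPS-OSH and 0.831 in MEF and was not well above background in iPS-J or ESC. Cd44, a surface receptor that can hold Mmp9 at the membrane, had 19.4 in iPS-OSH, 2.02 in iPS-J, 1.14 in ESC and 28.0 in MEF. Vcan, versican, a substrate of Adamts1, had 2.7 in iPS-OSH, 0.7 in iPS-J, 0.976 in ESC and 15.3 in MEF. Dpp4, a surface peptidase, ran the other way, with 1.02 in iPS-OSH, 2.19 in iPS-J, 0.621 in ESC and 0.0686 in MEF.

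Among the 11 AP-1 and Ets factors, 2 were higher and 2 lower in iPS-OSH than in MEF (all genes 13.7% and 24.9%), 5 higher and 0 lower in iPS-OSH than in ESC (9.13% and 27.0%), and 3 higher and 0 lower in iPS-OSH than in iPS-J (11.6% and 7.61%). Fosl1, an AP-1 subunit named here after its values were seen, had 1.99 in iPS-OSH, 0.278 in iPS-J, 0.282 in ESC and 2.26 in MEF. Jun, chosen in the same way, had 13.5 in iPS-OSH, 3.81 in iPS-J, 2.35 in ESC and 17.2 in MEF. Both were highest in MEF, with iPS-OSH next.

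Markers of cell types also differed between the arrays. The summed normalized signal of 10 fibroblast markers, all well above background on all 4 arrays, was 365 in iPS-OSH, 72.3 in iPS-J, 53.0 in ESC and 1250 in MEF. That of 8 pluripotency markers was 298, 443, 531 and 0.765 in the same order, with 8, 8, 8 and 6 markers well above background. Such sums weigh bright probes most. Zfp42, at 145 in ESC and 7.71 in iPS-J, was the only pluripotency marker called between these arrays (1 of 8, all genes 33.6%). Of the 10 fibroblast markers, 10 were higher in iPS-OSH than in ESC (all genes 9.13%) and 9 than in iPS-J (11.6%). Against MEF, 1 was higher in iPS-OSH (Dcn, all genes 13.7%) and 8 lower (24.9%). iPS-OSH thus carried both the markers of its label and a fibroblast marker sum above those of iPS-J and ESC. Timp1 to Timp3, Mmp14 and Adamts1 had the same order of MEF and iPS-OSH above iPS-J and ESC. Mmp3, Mmp10 and Mmp13 did not, being higher in iPS-OSH than in MEF, where the fibroblast sum was highest. The part of these markers in the member differences was not tested. In such bulk RNA, fewer cells of a type and less RNA per cell cannot be told apart. The sum over 8 primitive endoderm markers was 8.54 in iPS-OSH, 160 in iPS-J, 22.1 in ESC and 3.47 in MEF. Of the 46 detected members, 2 were highest in iPS-J (Adamts15 and Mmp1a, 4.35%, against 19.5% of all genes). Sums for macrophage, endothelium and neutrophil lists were 23.0, 7.26 and 1.83 in iPS-OSH, 16.0, 10.7 and 1.38 in iPS-J, 9.45, 6.81 and 1.55 in ESC, and 37.3, 9.17 and 4.13 in MEF. In iPS-OSH most of each sum came from 1 gene, with Itgam at 15.1, Kdr at 6.23 and Elane at 1.66. This did not hold for the macrophage list in ESC, where Itgam was 3.93. The part of the primitive endoderm, macrophage, endothelium and neutrophil lists in these results was also not tested.

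Between 67.0% (iPS-J) and 81.7% (MEF) of non-control spots were well above background. The SD of a difference between 2 arrays, from probes printed 10 times, was 0.12 to 0.19 log2. It covers spot noise only, not culture or labelling. All 4 arrays lay on 1 slide, and scan session 2 held both iPS lines while MEF and ESC were scanned in sessions 1 and 3, so outside iPS-OSH against iPS-J, session and population cannot be told apart.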

How the data were processed

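Total RNA of the 4 populations was labelled with Cy3 and hybridized to 1-colour arrays, per the labels. The authors deposited scanner output with an intensity per spot, background-subtracted by Agilent Feature Extraction 10.5.1.1 and not normalized across arrays, per the file headers. A deposited value table held the same intensity, rounded (deviation at most 0.497%).

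The processed signal was divided by its array's 75th percentile over non-control probes (1396.6 for iPS-OSH, 1095.4 for iPS-J, 1184.6 for ESC and 1583.0 for MEF) and taken as log2. Outlier spots (203, 531, 390 and 302 in that order) were left out, spots of a probe averaged, and each gene name represented by its probe of highest mean. A gene entered a comparison if either array held it well above background. Bounds used the higher of the dim probe's signal and the lowest signal well above background, which is not a detection limit for every probe. All 35242 genes with a value were processed alike. The number of arrays limits the precision.

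The members and lists were chosen with earlier results of these data known. Named in full were members at least 4-fold different between any 2 populations, the Timps, Mmp2, Mmp9 and Mmp14. Up to 4 genes of largest difference per comparison were taken from other lists, of which 1 is not reported here. All 51 members matched the RefSeq table, none with another symbol. Probe coordinates (mm9) carry no exon annotation. Of the alternatives, 9 were set with the design and 1 (ERCC detection) after seeing the data. limma 3.58.1 was used for normexp (offset 50). Quantile normalization was done without it, with the mean of the sorted values of the arrays. As a check of the code, on simulated iPS-OSH and MEF data, 200 of 200 planted differences were recovered with 0 false calls among 35242 genes. This does not give the rate of false calls on the real arrays, which have no replicates. No test was made with 1 array per group.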

Additional observations from a re-analysis of the deposited data

Results flagged for a closer look

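Mmp10 and Mmp13 were picked out because their differences from MEF had opposite signs in the pluripotent populations. Mmp10 was 2.12 log2 higher in iPS-OSH than in MEF, whereas it was -1.13 in iPS-J and -1.54 in ESC against the same array. Mmp13 was 2.37 log2 higher in iPS-OSH than in MEF, against bounds of -2.63 or lower in iPS-J and -1.47 or lower in ESC, where it was not well above background. With normexp correction the bounds were -0.67 and -0.58, under 2-fold, and with the ERCC limit Mmp13 was detected in iPS-OSH only, so that no lower value is left in iPS-J or ESC. Mmp10 in iPS-J was -0.87 with normexp correction. These comparisons share the MEF array, each population had 1 array, and the difference between them was not tested.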

How the results depend on the processing

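No paired analysis was possible because each population had 1 array. Of 120 recomputed counts of members higher or lower, 92 were within 1.5 times the reported count. The counts that moved are given here, and the cause was not tested except where a stricter limit leaves fewer genes. With normexp correction the members higher against MEF were 4 (iPS-OSH), 3 (iPS-J) and 2 (ESC), and the members lower were 5 in iPS-OSH and 2 in iPS-J against ESC. Quantile normalization gave 5 lower in iPS-OSH against ESC (4974), and 10 higher and 3 lower in iPS-J against ESC (2807 and 3876). Spike-in scaling (3810) and the deposited value table (3169) each gave 3 higher in iPS-J against MEF. Detection on both arrays gave 3 higher in ESC against MEF (5610) and 6 lower in iPS-J against ESC (4718). At 4-fold, iPS-OSH against MEF had 4 higher and 9 lower (1612 and 1135 of 31222). Against MEF, iPS-J had 2 higher (2232 of 30717), and ESC 1 higher and 13 lower (2900 and 2139 of 31456). Against ESC, iPS-OSH had 8 and 1 (805 and 1617 of 30629), and iPS-J 1 and 2 (292 and 2157 of 29635). For iPS-OSH against iPS-J the counts were 9 and 2 (809 and 480 of 29292). The ERCC limit, chosen after seeing the data, left 3, 1 and 2 higher in iPS-OSH, iPS-J and ESC against MEF (2842, 3954 and 4498). It left 3 lower in each iPS line against ESC (4603 for iPS-OSH and 3988 for iPS-J). Of 2532 recomputed differences of single members, 5 reversed, all with the median over probes: Adamts8 at 0.67 in iPS-OSH and 0.03 in iPS-J against MEF, and Adamts18 at -0.61, -0.35 and -0.15 in iPS-OSH, iPS-J and ESC against MEF.

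Over the 5 scalings the median of all genes ranged from -0.88 (iPS-J against MEF, lowest) to 0.36 (ESC against MEF, highest). The members' median relative to it was -0.49 to -0.45 for iPS-OSH, -0.90 to -0.67 for iPS-J and -1.30 to -0.86 for ESC against MEF, 0.53 to 0.93 in iPS-OSH against ESC and 0.30 to 0.66 in iPS-OSH against iPS-J. Of 150 called differences of members, 97 were called in every scaling, among them those of Mmp3, Mmp14, Mmp23, Adamts1, Adamts2 and Timp3. Scalings do not cover disagreement between probes, as for Adamts2 in iPS-OSH against ESC. Dim signals limit many members: with the ERCC limit the called differences of Mmp25, Mmp27, Adamts13 and Adamts19 were not measurable in any comparison, and those of Mmp1b and Mmp15 were under 2-fold or not measurable.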
